A study of Mus musculus with 4 samples.

Results

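The genes described here are 10 members of the cadherin superfamily in C2C12 myoblasts: the delta-protocadherins Pcdh7, Pcdh1, Pcdh10, Pcdh18 and Pcdh19 and the cadherins Cdh2, Cdh4, Cdh11, Cdh13 and Cdh15. They were taken by symbol from the 51826 gene identifiers of the deposited count table, and all 10 were found. The choice was made with their levels in the 4 libraries and the result of the treatment contrast already known, so their levels and fold changes are given as a description and support nothing by themselves. C2C12 is an established mouse myoblast line that divides in growth medium and fuses into myotubes when serum is withdrawn. One group of 2 libraries came from cells given recombinant GDF10, an extracellular protein of the TGF-beta superfamily also called BMP3b, for 6 h in growth medium. The other group of 2 libraries came from cells given vehicle for 6 h in the same medium, and the study asked how the transcriptome of the myoblasts differs between them. The dose of GDF10 is not given in the labels, both groups come from a single cell line, and the 2 replicates of each are described as biological without saying what separated them.

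Cadherins are calcium-dependent adhesion proteins of the cell surface. Classical cadherins such as those encoded by Cdh2 and Cdh15 bind the same cadherin on a neighbouring cell through their outer domain, and their cytoplasmic tail holds beta-catenin and p120 catenin, which link them to actin through alpha-catenin. Delta-protocadherins have more outer repeats and a tail that does not bind beta-catenin. Instead that tail meets proteins such as protein phosphatase 1 alpha, in the delta-1 group, and the actin-regulating WAVE complex, in members of the delta-2 group. In muscle, M-cadherin and N-cadherin mark satellite cells and myoblasts, and adhesion through them precedes the fusion of myoblasts.

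Library totals ran from 29944193 to 35057429 counts in the GDF10 libraries and from 29641165 to 35597310 in the vehicle libraries. Levels are given in CPM, the usual scale on which counts of a gene are divided by the size of their library, and 3 counts made 0.0840 to 0.101 CPM. The labels call the cells myoblasts and also muscle stem cells, and 5 of the 7 myoblast markers on the list were well counted: Des, Itga7, Chrna1, Myod1 and Myf5 had means over the groups of 22.9 to 1037 CPM, whereas Msc stayed under 1 CPM in each group mean and Pax7, a satellite cell factor, had 0 counts in all 4 libraries. The list of 7 summed to 2103 and 2077 CPM in the GDF10 libraries and to 2044 and 2022 CPM in the vehicle libraries. A protocol label names a muscle, longissimus dorsi, where all other labels name C2C12. Marker lists of other cell types summed to 6.04 to 7.43 CPM for mature fibres, 11.1 to 15.5 for epithelium, 2.16 to 2.75 for endothelium, 2.58 to 3.47 for leukocytes and 1.70 to 1.78 for neurons and glia, and to 964 to 1144 CPM for fibroblast genes, mostly Col1a1. Epcam, Krt5, Cldn4, Emcn, Adgre1, Cd3e and Sox10 had 0 counts in every library. Other genes of the same lists were counted in every library: Krt14 at 229 to 319 counts, Krt8 at 117 to 214, Cd68 at 81 to 122 and Tek at 52 to 80. Of the fibroblast genes besides Col1a1, Pdgfra had 1760 to 2195 counts and Dcn 922 to 1194. Lum and Thy1 had 2 and 1 counts, only in GDF10 replicate 2.

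The members fell into 3 sets by level. The first set was well counted: Cdh15, Cdh2, Cdh13, Pcdh7, Pcdh19, Pcdh1 and Pcdh18 had at least 294 counts in every library. Cdh11, which encodes OB-cadherin of mesenchyme and osteoblasts, had 4 and 16 counts in the GDF10 libraries and 25 and 8 in the vehicle libraries. Pcdh10 had 0 and 2 counts with GDF10 and 0 in both vehicle libraries, and Cdh4, which encodes R-cadherin, had 0 counts in all 4. A count of 0 allows a level of up to 0.0840 to 0.101 CPM, which limits Cdh4 in every library. Pcdh10 stayed under 3 counts as well, so these counts do not show Cdh4 and Pcdh10 as cadherins of these myoblasts. Cdh11 lay above that limit in every library but under 1 CPM in all 4. The filter on low counts kept 8 of the 10, leaving out Cdh4 and Pcdh10. In bulk RNA, fewer cells that make a transcript and less of it per cell cannot be told apart.

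**Figure D1:**
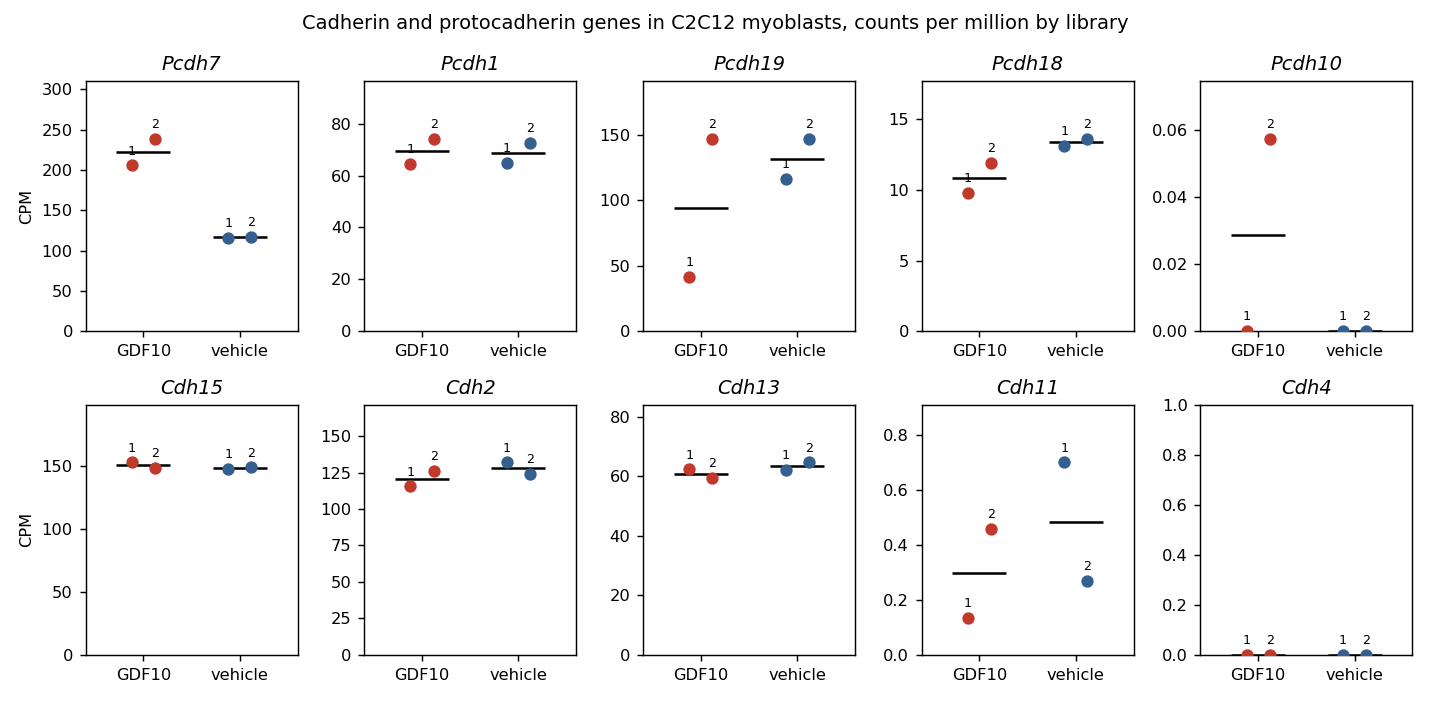
CPM of the 10 genes in each library, 1 panel per gene with its own linear axis from 0, GDF10 on the left and vehicle on the right, with points numbered by replicate and a bar at the group mean. Pcdh7 lay at 205.6 and 239 CPM with GDF10 and at 116 and 117 CPM with vehicle, while Pcdh19 had 1 low library, GDF10 replicate 1, at 41.4 CPM.

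By level per length the classical cadherin of the muscle lineage stood highest. Cdh15, which encodes M-cadherin (ENSMUSG00000031962; mm10 chromosome 8, 122847966 to 122867397, plus strand), had 4570 and 5157 counts in the GDF10 libraries and 5266 and 4398 in the vehicle libraries. Scaled to library size this was 150.2 ± 3.21 CPM with GDF10 and 148 ± 0.838 CPM with vehicle (mean ± SD, n = 2 each). All 4 libraries lay within 147 to 153 CPM, and the groups overlapped. Its log2 fold change of GDF10 over vehicle was 0.02, with a 95% interval of -0.14 to 0.18 (adjusted p = 0.966, from the quasi-likelihood test of edgeR with Benjamini-Hochberg adjustment, as for all adjusted p below unless another tool is named). Per kilobase of exon it averaged 45.9 CPM over the 4 libraries, and its lowest library, at 45.3, lay above every library of the other members.

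Cdh2 encodes N-cadherin, the other classical cadherin that myoblasts use (ENSMUSG00000024304; chromosome 18, 16588877 to 16809246, minus strand). Its libraries held 3462 and 4404 counts with GDF10 and 4712 and 3669 counts with vehicle, or 121 ± 7.66 CPM with GDF10 and 128 ± 5.61 CPM with vehicle (SD, n = 2 each). These groups overlapped, and the log2 fold change was -0.08 (95% interval -0.27 to 0.11, adjusted p = 0.876). Cdh13 encodes T-cadherin, which has no cytoplasmic tail, is held in the membrane by a GPI anchor and binds adiponectin (ENSMUSG00000031841; chromosome 8, 118283733 to 119324921). It measured 62.3 and 59.4 CPM in the GDF10 libraries and 62.1 and 64.6 CPM in the vehicle libraries. The log2 fold change was -0.06 (95% interval -0.26 to 0.14, adjusted p = 0.911), and the groups overlapped. For these 3 cadherins the intervals reached from -0.27 at the lowest to 0.18 at the highest on the log2 scale.

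The type II cadherin Cdh11 (chromosome 8, 102632095 to 102785642) was too sparse for a comparison of that precision. Its 20 counts over both GDF10 libraries stood beside 33 over both vehicle libraries, the replicates differed by 3.44-fold with GDF10 and by 2.59-fold with vehicle, and the 95% interval of the log2 fold change ran from -2.41 to 1.02.

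Promoter sequences, which run from 250 bases before to 50 bases after the annotated RefSeq start, are shown for 3 members whose counts behaved differently: Cdh15, level in all 4 libraries, Pcdh7, apart between the groups, and Pcdh19, apart between replicates. Of the members, 5 had a sequence in the RefSeq table (GRCm38.p6). Capitals mark matches on either strand to CANNTG, the E-box read by MyoD and its relatives and in some forms by Snail and ZEB repressors, and to CAGAC, the SMAD box. No match of one motif overlapped one of the other.
Cdh15: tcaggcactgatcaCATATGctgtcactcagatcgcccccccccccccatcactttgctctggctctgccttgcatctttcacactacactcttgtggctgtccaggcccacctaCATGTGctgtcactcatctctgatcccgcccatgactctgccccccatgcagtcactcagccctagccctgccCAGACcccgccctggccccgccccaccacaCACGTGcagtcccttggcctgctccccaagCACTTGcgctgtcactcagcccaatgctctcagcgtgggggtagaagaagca
Pcdh7: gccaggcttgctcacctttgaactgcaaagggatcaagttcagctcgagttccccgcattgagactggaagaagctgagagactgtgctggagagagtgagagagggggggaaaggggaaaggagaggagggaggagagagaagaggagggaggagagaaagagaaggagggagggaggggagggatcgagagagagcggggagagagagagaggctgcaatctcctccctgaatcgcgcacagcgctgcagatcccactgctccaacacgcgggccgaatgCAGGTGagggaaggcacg
Pcdh19: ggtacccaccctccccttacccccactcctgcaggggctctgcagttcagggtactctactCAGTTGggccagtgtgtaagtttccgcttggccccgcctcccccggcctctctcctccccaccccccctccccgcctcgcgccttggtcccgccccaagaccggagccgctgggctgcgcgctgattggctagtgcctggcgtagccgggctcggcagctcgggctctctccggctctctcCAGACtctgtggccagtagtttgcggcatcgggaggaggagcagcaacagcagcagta

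The windows lie at chr8:122848124-122848423 on the plus strand for Cdh15, chr5:57717831-57718130 on the plus strand for Pcdh7 and chrX:133688944-133689243 on the minus strand for Pcdh19. The Cdh15 window held 4 E-boxes, the first bases of which lie 236, 135, 32 and 2 bases before the RefSeq start, and 1 SMAD box 62 bases before it. This window lies wholly inside the gene span given above, which starts at 122847966. By that annotation all its matches lie after the gene start. The Pcdh7 window held 1 E-box, CAGGTG, from base 33 of the RefSeq transcript, and no SMAD box. The gene span of Pcdh7 starts at 57717967, inside this window and before the RefSeq start. By that annotation the E-box lies further into the gene. The Pcdh19 window held 1 E-box and 1 SMAD box, the SMAD box starting 8 bases before the RefSeq start. Of all 32851 promoter windows of this length, 72.3% held CANNTG and 49.6% held CAGAC, so single matches are common, and a match or its absence in 300 bases says nothing about whether a factor binds. The windows of Pcdh10 and Pcdh18 held no E-box, and that of Pcdh18 held 2 SMAD boxes. GC content was 61.3% for Cdh15, 59.3% for Pcdh7 and 67.7% for Pcdh19, beside a median of 52.7% over all windows.

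Among the delta-1 protocadherins the counts of Pcdh7 lay apart between the groups and those of Pcdh1 did not. Pcdh7 encodes a protocadherin that, in human cells, binds protein phosphatase 1 alpha and the SET protein (ENSMUSG00000029108; chromosome 5, 57717967 to 58133230, plus strand). It had 6162 and 8318 counts in the GDF10 libraries and 4147 and 3475 counts in the vehicle libraries. Both GDF10 libraries, at 205.6 and 239 CPM, lay above both vehicle libraries, at 116 and 117 CPM. The GDF10 pair differed by 1.16-fold and the vehicle pair by 1.01-fold, against 1.90-fold between the groups. The log2 fold change was 0.93, with a standard error of 0.09, a 95% interval of 0.72 to 1.14 and an adjusted p of 0.0149 over 15467 genes.

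Pcdh7 was the 1 member of the 8 tested that passed the adjusted threshold of 0.05, where 0.162% of all genes tested passed in either direction, 0.084% as higher with GDF10 and 0.0776% as lower. That result was among those that put Pcdh7 on the list, so nothing is read from the count. At an unadjusted p under 0.05 it was again the 1 member of the 8, beside 5.94% of all genes tested. The groups did not overlap for 2 of the 8, Pcdh7 and Pcdh18, or 25%, beside 38.2% of all genes tested. With 2 libraries against 2, an exact two-sided permutation test of a single gene cannot give a p below 0.333, so the adjusted p rests on the spread shared across genes. The call was lost without vehicle replicate 1 (0.0991), without vehicle replicate 2 (0.0628), with limma-voom (0.0708) and with non-robust dispersions (0.0675), while the log2 fold change stayed between 0.82 and 1.03 under all 16 alternatives.

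**Figure D2:**
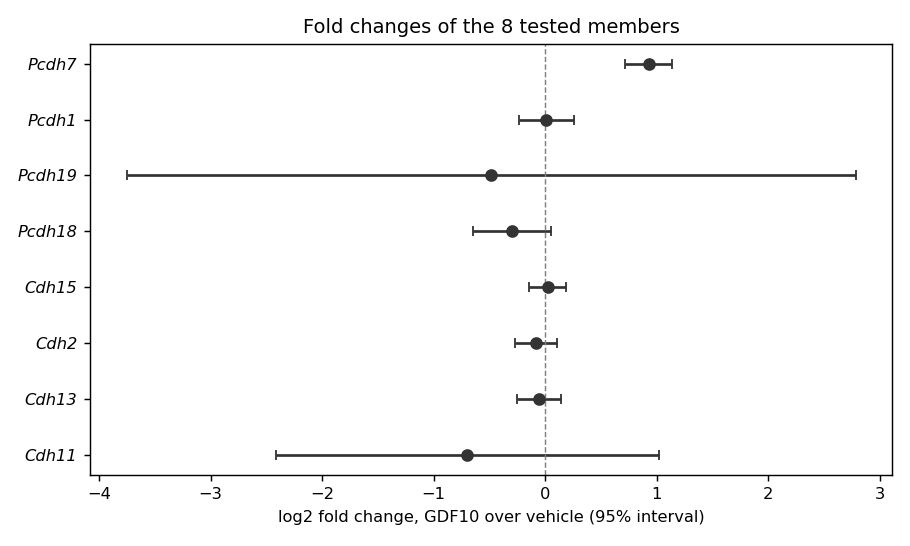
Log2 fold change of GDF10 over vehicle for the 8 tested genes from edgeR, with 95% intervals. The interval of Pcdh7 runs from 0.72 to 1.14, those of Cdh15, Cdh2, Cdh13 and Pcdh1 are narrow and hold 0, and those of Pcdh19 and Cdh11 are wide.

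An annotated transcript on the opposite strand, 4932441J04Rik (chromosome 5, 57570082 to 57720201), shares 2235 exon bases with Pcdh7. Whether the counting used strand is not given in the sources used here, so reads in those bases cannot be assigned with certainty. Its own counts were 56 and 106 in the GDF10 libraries and 76 and 48 in the vehicle libraries, far below those of Pcdh7 in each library. Summed over both genes the counts were 6218 and 8424 with GDF10 and 4223 and 3523 with vehicle, and the log2 fold change was 0.92 (95% interval 0.71 to 1.13, adjusted p = 0.0151). Pcdh19 and Pcdh10 also share exon bases with opposite-strand transcripts, 57 and 154 of them, whose counts were 0 throughout. None of the 10 members shares exon bases with another gene on its own strand.

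Pcdh1, the other delta-1 protocadherin with counts and an airway epithelial adhesion gene in humans (ENSMUSG00000051375; chromosome 18, 38185914 to 38212053), measured 64.4 and 74.2 CPM with GDF10 and 64.8 and 72.6 CPM with vehicle. The groups overlapped almost fully. Its log2 fold change was 0.01 (95% interval -0.24 to 0.26, adjusted p = 0.991). The remaining delta-1 genes were nearly silent, with 0 counts of Pcdh9 in the GDF10 libraries and 1 in the vehicle libraries, and 0 of Pcdh11x in all 4.

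By the shape of its values over the 4 libraries Pcdh7 was most like Krr1, Trim39 and Pacsin2. Among the other 10807 tested genes with a mean of at least 5 CPM these had the smallest Euclidean distances between log2 CPM deviations from the 4-library mean, at 0.093, 0.14 and 0.15 on the log2 scale. Krr1 measured 55.8 and 59.5 CPM with GDF10 and 29.3 and 30.2 CPM with vehicle. Trim39 measured 31.7 and 33.9 CPM with GDF10 and 18.2 and 16.7 CPM with vehicle. Pacsin2 measured 240 and 251 CPM with GDF10 and 139 and 137 CPM with vehicle. All 3 were called in the same fit, and 4 libraries in 2 groups leave room for little more than likeness in fold change and replicate spread.

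Of the delta-2 protocadherins, Pcdh19 was well counted but uneven between libraries. Pcdh19 is X-linked; its human counterpart is a gene of epilepsy in females, and in zebrafish its protein acts together with N-cadherin (ENSMUSG00000051323; chromosome X, 133582860 to 133688987, minus strand). It had 1240 and 5106 counts in the GDF10 libraries and 4147 and 4346 counts in the vehicle libraries, or 41.4 and 146.5 CPM with GDF10 and 116 and 147 CPM with vehicle. GDF10 replicate 1 alone was low, and GDF10 replicate 2 lay close to vehicle replicate 2. The GDF10 pair differed by 3.54-fold, a gap exceeded by 30 of the 9715 tested genes with a mean of at least 10 CPM, or 0.309%. The vehicle pair differed by 1.26-fold, a gap exceeded by 6.17% of those genes.

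The contrast gave a wide interval for Pcdh19. Its log2 fold change was -0.48 with a standard error of 0.85, a 95% interval of -3.75 to 2.79 and an adjusted p of 0.941. Without GDF10 replicate 1 the log2 fold change was 0.16, and without GDF10 replicate 2 it was -1.67 with an adjusted p of 0.0781, the only fit in which it came near the threshold. GDF10 replicate 1 was also the library in which long genes were low: the Spearman correlation across tested genes between the deviation from the 4-library mean and exon length was -0.33 there and 0.08 in the other GDF10 library, against 0.11 and 0.20 with vehicle. Genes with 8000 or more exon bases and a mean of at least 5 CPM had a median deviation of -0.12 on the log2 scale in that library, while Pcdh19, with 10464 exon bases, stood at -1.28, and of the 2016 such genes 6, itself included, were that low. Pcdh7, with 10604 exon bases, stood at 0.35 in the same library. The part that exon length has in the low value of Pcdh19 was not tested beyond the removal of the trend, after which its log2 fold change was -0.65, against -0.75 in the same limma fit with the trend left in.

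**Figure D3:**
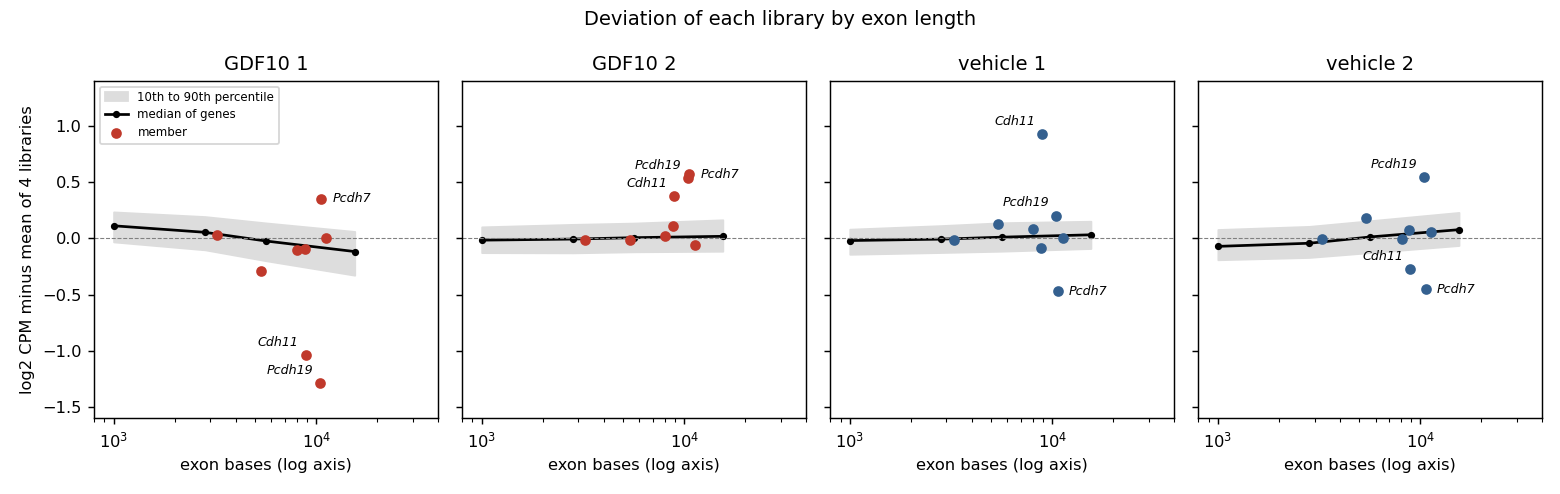
Log2 CPM minus the mean of the 4 libraries against exon bases (log axis), 1 panel per library, with the 8 tested members as points, the median of tested genes with at least 5 CPM in 4 length classes as a line and their 10th to 90th percentile as a band. The line falls with length in GDF10 replicate 1, to -0.12 for the longest class, and Pcdh19 lies far under it at -1.28.

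Pcdh18 (ENSMUSG00000037892; chromosome 3, 49743296 to 49757325) was the lowest of the well-counted members. Its counts were 294 and 415 with GDF10 and 468 and 403 with vehicle, which is 9.81 and 11.9 CPM with GDF10 and 13.1 and 13.6 CPM with vehicle. Both GDF10 libraries lay under both vehicle libraries, but the difference did not pass the test (log2 fold change -0.30, 95% interval -0.65 to 0.05, unadjusted p = 0.0837, adjusted p = 0.825). Pcdh10, whose protein is known to recruit the WAVE complex through Nap1, the product of Nckap1 (chromosome 3, 45378398 to 45435623), was at 2 counts in 1 library. Of the delta-2 genes outside the set, Pcdh17 had 2 counts in vehicle replicate 2 and Pcdh8 had 0 throughout.

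Per kilobase of exon, over the 4 libraries, the order of mean levels was Cdh15 at 45.9 CPM, Pcdh7 at 15.98, Cdh2 at 15.4, Pcdh19 at 10.8, Pcdh1 at 7.84, Cdh13 at 5.53, Pcdh18 at 2.256 and Cdh11 at 0.0439. The ranges of Pcdh7 (10.9 to 22.5 CPM per kilobase) and Cdh2 (14.3 to 16.4) overlapped, as did those of Pcdh19 (3.95 to 14.0) and Pcdh1 (7.32 to 8.43), so the order within these pairs lies within their spread. The other neighbours in the order, down to Pcdh10, had ranges that did not overlap. Beyond neighbours, the range of Pcdh19 also overlapped that of Pcdh7 and held that of Cdh13 (5.29 to 5.75). The place of Pcdh19 relative to Pcdh7, Pcdh1 and Cdh13 therefore lies within its spread. In the GDF10 libraries Pcdh7 stood above Cdh2, at 19.4 and 22.5 against 14.3 and 15.7 CPM per kilobase, and in the vehicle libraries it stood below, at 10.9 and 11.1 against 16.4 and 15.4. The order depends on which transcripts the cells use, which gene counts do not show. With the longest annotated transcript as the length, Cdh2 came next after Cdh15 at 25.7 CPM per kilobase, followed by Pcdh7 at 19.3 and Cdh13 at 13.6.

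**Figure D4:**
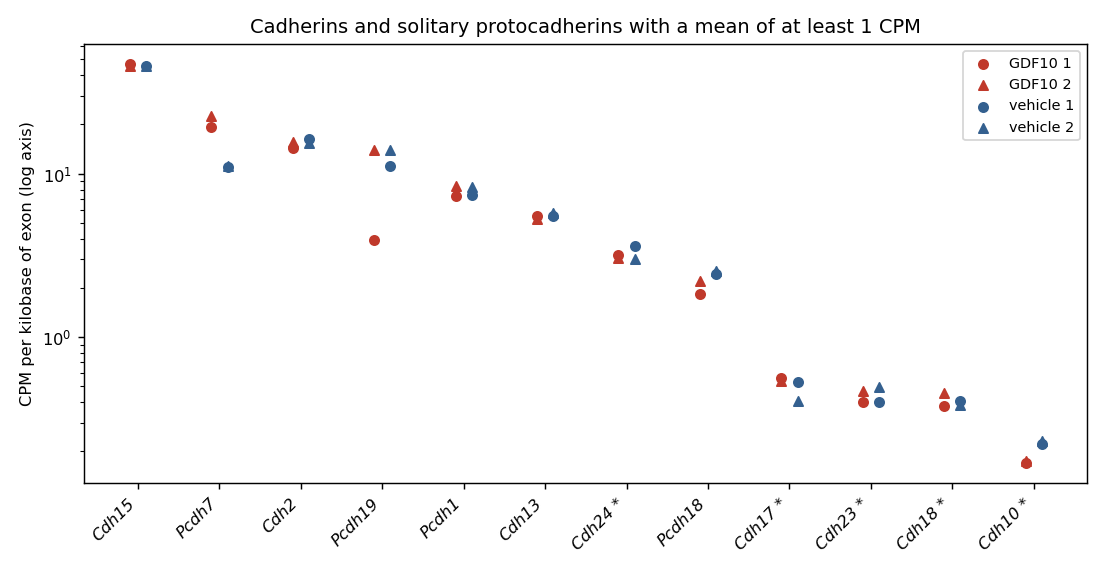
Level per length (CPM per kilobase of exon, log axis) in each library for the 12 cadherins and solitary protocadherins with a mean of at least 1 CPM, GDF10 in red and vehicle in blue, circles for replicate 1 and triangles for replicate 2, with an asterisk on genes outside the 10 described. Cdh15 lies highest in all 4 libraries, and the libraries of Pcdh7 and Pcdh19 spread most among the upper 6 genes.

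The set held nearly all counts of the cadherins and solitary protocadherins listed, but not of the wider superfamily. Of 35 cadherins and solitary protocadherins listed, 25 had a count in some library and 12 had a mean of at least 1 CPM. The 10 members took 96.4% and 97.0% of the CPM of the 35 in the GDF10 libraries and 96.1% and 96.5% in the vehicle libraries. Pcdh7 alone took 30.4% and 28.7% with GDF10 and 17.1% and 16.5% with vehicle. Cdh15 took 22.6% and 17.8% with GDF10 and 21.7% and 20.8% with vehicle. These shares are of counts, to which long genes give more. The members took less of the 114 genes on the superfamily list: 39.2% and 41.1% with GDF10 and 36.3% and 37.3% with vehicle. Because they were chosen with their levels known, nothing is read from a high share. Outside the set Cdh24, a type II cadherin, averaged 10.9 CPM with GDF10 and 11.5 with vehicle. The other listed cadherins were low or near 0. Cdh23, of hair cells, averaged 7.39 CPM with GDF10 and 7.59 with vehicle, and intestinal Cdh17 averaged 2.46 CPM with GDF10 and 2.10 with vehicle. Cdh18 and Cdh10, known from neurons, averaged 1.90 and 1.73 CPM with GDF10 and 1.80 and 2.29 CPM with vehicle. Epithelial Cdh1 had 0 counts with GDF10 and 7 with vehicle, endothelial Cdh5 had 4 with GDF10 and 8 with vehicle, and of 9 desmosomal cadherins 8 had no count at all. Within the listed families Pcdh7 alone passed the adjusted threshold in the edgeR test, beside 0.162% of all genes tested. Another 2, both gamma protocadherins, had an unadjusted p under 0.05, beside 5.94% of all genes tested.

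Of the 12 Fat, Dachsous, flamingo and calsyntenin genes 7 were tested, with a median log2 fold change of -0.07 beside 0.0029 over all genes tested. In the edgeR test 0 passed or had an unadjusted p under 0.05, beside 0.162% and 5.94% of all genes tested. Clstn1, which encodes calsyntenin-1, averaged 284 CPM with GDF10 and 298 with vehicle, and at 62.4 CPM per kilobase of exon stood above Cdh15. Fat1, a giant protocadherin with roles in polarity and muscle shape, had 310.4 and 432 CPM in the GDF10 libraries and 403 and 441 CPM in the vehicle libraries. Its groups overlapped, and its log2 fold change was -0.18 (adjusted p = 0.877). GDF10 replicate 1, the library in which long genes were low, was the lowest for Fat1 as for Pcdh19, and Fat1 has 15655 exon bases. Without GDF10 replicate 2 the log2 fold change of Fat1 was -0.44. Fat4 and Dchs1, the receptor and ligand of a polarity pathway, averaged 10.2 and 1.05 CPM with GDF10 and 13.0 and 0.539 CPM with vehicle, and neither passed (adjusted p = 0.825 for each).

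In contrast to the 10 solitary genes, the clustered gamma protocadherins on chromosome 18 share their last exons, and their counts moved between genes from library to library. The 22 gamma genes together had 354 and 338 CPM in the GDF10 libraries and 359 and 316 CPM in the vehicle libraries. In GDF10 replicate 1 the gene Pcdhga11 held 69.4% of these counts, in GDF10 replicate 2 Pcdhga8 held 67.5%, and in the vehicle libraries Pcdhgb4 held 79.9% and 74.3%. Pcdhga8 had 16 and 7956 counts with GDF10 and 11 and 5 with vehicle. Pcdhgb4 had 314 and 16 counts with GDF10 and 10257 and 6942 with vehicle. Summed over the 49 genes joined by shared exon bases, which include the alpha cluster, the log2 fold change was 0.04 (95% interval -0.14 to 0.22, adjusted p = 0.933). Since these genes share exons, the counts of single gamma genes are uncertain. Of the 20 tested 0 passed in the edgeR test and 2, Pcdhgb1 and Pcdhga5, had an unadjusted p under 0.05, beside 5.94% of all genes tested. The log2 fold change of Pcdhgb4 was -9.14 without GDF10 replicate 1 and -4.64 without GDF10 replicate 2. The beta cluster was lower in counts: of 22 genes 10 were tested, 0 passed or had an unadjusted p under 0.05, and 9 of the 10 log2 fold changes were below 0, with a median of -0.18, beside 7611 of 15467 below 0 over all genes tested. Pcdhb21, a beta gene not tested in the main fit, had 0 and 0 counts with GDF10 and 0 and 240 with vehicle. Without vehicle replicate 1 its log2 fold change was -11.0, a value that rests on vehicle replicate 2 alone. Its annotated span overlaps that of Pcdhb22 on the same strand, so its counts are uncertain as well.

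**Figure D5:**
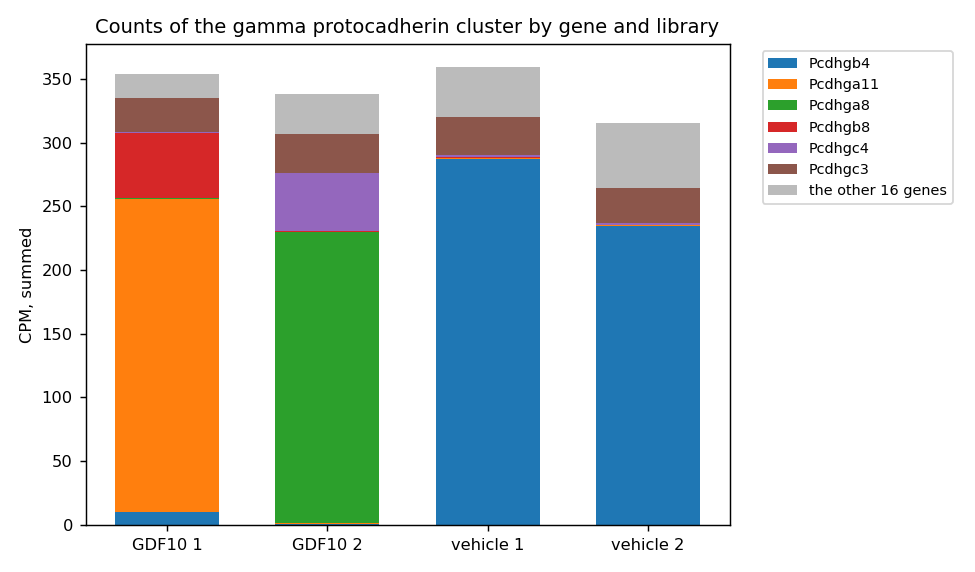
Summed CPM of the 22 gamma protocadherin genes in each library, GDF10 on the left, stacked by gene, with the 6 largest named and the other 16 in grey. The totals lie between 316 and 359 CPM, while the gene that holds most of them is Pcdhga11 in GDF10 replicate 1, Pcdhga8 in GDF10 replicate 2 and Pcdhgb4 in both vehicle libraries.

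Genes of the pathway lists, which hold partners, proteases and repressors, ranged in level from 0 counts in all 4 libraries to high levels. Ctnna2, Wasf3 and Pcsk5 were at 0, and Ctnnb1, Vcl and Ppp1ca were among the high ones. In the edgeR test 0 of them passed, while DESeq2 called 1, Zeb2. An unadjusted p under 0.05 was found for 1 of 9 tested catenins and adaptors, Ctnnal1, for 2 of 7 tested repressors, Zeb1 and Zeb2, and for 0 in the other 3 lists, beside 5.94% of all genes tested. Of 12 catenins and junction adaptors 9 were tested, with a median log2 fold change of -0.06 beside 0.0029 over all genes tested. Ctnnb1, which encodes beta-catenin, averaged 497 CPM with GDF10 and 503 with vehicle, and Ctnna1, of alpha-catenin, 518 with GDF10 and 547 with vehicle. Vcl, which encodes vinculin, averaged 549 CPM with GDF10 and 649.5 with vehicle. Afdn, of the junction protein afadin, had 44.2 and 65.9 CPM in the GDF10 libraries and 68.3 and 89.5 CPM in the vehicle libraries. Its log2 fold change was -0.52 at an adjusted p of 0.833. GDF10 replicate 1, the library in which long genes were low, was the lowest for Vcl and Afdn, which have 8191 and 10223 exon bases. The part of exon length in the values of Vcl and Afdn was not tested separately. Ctnnal1, of alpha-catulin, averaged 37.6 CPM with GDF10 and 44.6 with vehicle (unadjusted p = 0.0264, adjusted p = 0.825).

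Of 12 cytoplasmic partners of protocadherins 11 were tested, with a median of 0.05. Ppp1ca, the phosphatase that the Pcdh7 protein binds, averaged 565 CPM with GDF10 and 518 with vehicle (log2 fold change 0.12, adjusted p = 0.845). Set averaged 394 CPM with GDF10 and 380 with vehicle, and Nckap1 averaged 172.5 with GDF10 and 186 with vehicle. Of 14 proteases that mature or shed cadherins 13 were tested, with a median of 0.06. Furin, which removes the cadherin propeptide, had a log2 fold change of 0.03, and Adam10, which sheds N-cadherin, of -0.13 (adjusted p = 0.956 and 0.833). Adam9 had 95.1 and 149 CPM with GDF10 and 154 and 167 CPM with vehicle, and passed only without GDF10 replicate 2 (log2 fold change -0.75, adjusted p = 0.00411). Of 5 coreceptors and ligands 4 were tested, with a median of -0.02: Cdon, an immunoglobulin-family partner of N- and M-cadherin in myoblasts, averaged 103 CPM with GDF10 and 111.5 with vehicle, and Adipoq, the gene of the T-cadherin ligand adiponectin, had 0 counts in all 4 libraries.

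The last list held transcription factors that repress cadherin genes. Of 9 listed 7 were tested, with a median log2 fold change of -0.02, and 0 passed. Zeb2 had 43.2 and 59.1 CPM in the GDF10 libraries and 81.2 and 91.5 CPM in the vehicle libraries, so both GDF10 values lay below both vehicle values. Its log2 fold change was -0.75 with a standard error of 0.17, and its unadjusted p of 0.00521 became 0.655 after adjustment. DESeq2 called it at an adjusted p of 0.00892. Without GDF10 replicate 2 its log2 fold change in edgeR was -0.997. That fit leaves GDF10 replicate 1, the library in which long genes were low, and Zeb2 has 19942 exon bases. In limma 0 genes of the family and pathway lists, members aside, passed with the exon length trend removed, and 0 with it left in. The part of exon length in the value of Zeb2 was not tested beyond that. Zeb1 had 82.8 and 74.6 CPM with GDF10 and 92.5 and 99.7 with vehicle (log2 fold change -0.29, adjusted p = 0.815). Snai1 averaged 56.9 CPM with GDF10 and 57.5 with vehicle, and Twist1 had 0 counts throughout.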

How the data were processed

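RNA sequencing covered 4 libraries of C2C12 cells, 2 with GDF10 and 2 with vehicle, grouped by their titles. The deposited table holds whole-number counts per gene, not normalized, made by the authors. HISAT2 2.0 and StringTie 1.3.3b, with FastQC 0.11.2 and Trimmomatic 0.36 for the reads, bedtools 2.26.0, DESeq2 1.12.4 and the build mm10, are named per the submitters' processing notes. What counted the reads, on which annotation and whether by strand was not stated there. GENCODE M21 gave symbols and exon lengths for 51633 of 51826 identifiers.

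The main test was that of edgeR 4.0.16 in R 4.3.3 (filterByExpr, TMM, robust dispersions, glmQLFTest), with Benjamini-Hochberg adjustment over the 15467 genes kept and a threshold of 0.05. CPM use TMM-scaled totals. The labels do not say whether replicates were separate cultures, so p-values may reflect technical spread only, and floors of 3 counts cover counting error only. Members and lists were chosen with earlier results of these data known. The text names all members, the list genes highest per length or lowest in p, the 3 genes most like Pcdh7, genes sharing exon bases with a member, and, chosen after their values were seen, genes at or near 0 and the gamma genes that hold most counts. Alternatives were DESeq2 1.42.0, limma 3.58.1 with voom, other scalings, filters and dispersions, each library left out in turn, a block for the replicate number, and summed overlapping genes. Limma on log2 CPM, with and without the exon length trend, was chosen after seeing the data. Protein sequences were not used here.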

Additional observations from a re-analysis of the deposited data

How the results depend on the processing

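Genes called numbered 25 in edgeR's test, 65 with DESeq2, 11 with limma-voom, 9 with non-robust dispersions, 13 when overlapping genes were summed, and 27 to 224 when each library was left out in turn. The members called were 1, and 0 with limma-voom and with non-robust dispersions, and 0 to 1 with a library left out. For Pcdh7 the log2 fold change was 0.93 in both of those fits, with adjusted p of 0.0708 and 0.0675, and 0.82 to 1.03 with a library left out, with adjusted p over all alternatives from 3.2e-12 to 0.0991. Among the partner and family lists 0 genes passed, 1 (Zeb2) with DESeq2, and 1 to 8 with a library left out: 8 without GDF10 replicate 2, 4 without GDF10 replicate 1 and 1 without each vehicle replicate in turn. All 4 called without GDF10 replicate 1 were gamma protocadherins, and so were 4 of the 8. With a library left out, 1 arm holds 1 sample, which is assumed to vary like the other group. The sign changed for 5 members that passed in none of the fits: with a library left out Pcdh1 ran from -0.093 to 0.11, Pcdh19 from -1.67 to 0.16, Cdh11 from -1.85 to 0.16 and Cdh15 from -0.0007 to 0.044, and Cdh13 was 0.049 with the exon length trend removed. Pcdh18 and Cdh2 stayed below 0 in every fit. The rank of Pcdh7 by level per length was 2, and 3 with the longest transcript. With the replicate number as a block 23 genes passed and the log2 fold change of Pcdh7 was 0.92 at an adjusted p of 0.0107; the labels name no shared batch, and the deviations of same-numbered libraries correlated at 0.07 across genes. Cdh11 gave no value under the filter of 1 CPM in 2 libraries. Depth limits Cdh4 and Pcdh10, with fewer than 3 counts in every library, and the precision for Cdh11, with 4 to 25. The causes of these shifts were not tested.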
